A study of Rattus norvegicus with 2 samples.

Results

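Transcripts of 136 cytokine receptors, chemokine receptors, Toll-like receptors (TLRs), inflammasome sensors and genes of the NF-kB pathway were described in cultured rat oligodendrocyte precursor cells (OPCs). They were the rows, of 17202 genes in the deposited expression table, whose symbol matched a fixed pattern of family names, such as those beginning with Tnfrsf, Tlr or Nfkb. The pattern uses symbols and no measured value. OPCs are glial progenitors that divide in the brain and mature into the oligodendrocytes that make myelin. Both samples were wild-type rat OPCs from brain, kept in culture. 1 was given 1 µM amyloid-beta (Aβ), the peptide that accumulates in Alzheimer's disease, for 2 days. The control was given DMSO, a solvent, and since its treatment text repeats that of the Aβ sample, its duration is known only from there. Whether the cells came from adult or developing rats is not settled, since the labels name both. Each condition gave 1 library, so no test was possible, and all differences are between those 2 libraries with no replicate check.

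Cytokines act through receptor chains that assemble on the cell surface. Interleukin-1 and TLR ligands recruit the adaptor Myd88 and the kinases of the Irak family, TNF recruits Traf proteins, and both routes reach the kinase Map3k7 (TAK1) and the IKK complex. IKK marks the inhibitor Nfkbia (IkBα) for destruction, which frees NF-kB dimers such as Rela with Nfkb1 to enter the nucleus. NF-kB then switches on its own inhibitors, among them Nfkbia and Tnfaip3 (A20), so that the level of these genes is a common readout of the pathway. Cytokines of the gp130 family (LIF, oncostatin M, CNTF and IL-11) use the shared chain Il6st and signal through JAK kinases and STAT3, which induces the inhibitor Socs3. OPCs are known to meet such signals in demyelinating and degenerating tissue.

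Because the inhibitors are a readout of NF-kB, the 250 bases before the start site of each gene were read from the RefSeq promoter table (rat build GRCr8), which held 104 of the 136 members. The kB consensus, the binding motif of NF-kB dimers, was searched on both strands. It was found in 18 of the 104 member promoters (17.3%) and in 967 of all 27457 promoters in the table (3.52%). Of the 66 measured members with a promoter, 17 held it (25.8%). The share over promoters of all measured genes was not computed. The motif TTCNNNGAA, to which STAT factors bind, was found on either strand in 7 of the 104 (6.73%) and in 7.52% of all promoters. These are letter matches in one window and show no binding. The promoters of 6 genes of the NF-kB feedback loop that held a kB consensus are shown 5′ to 3′ on the strand of the gene, with the matched letters in capitals. They lie at chr6:78597073-78597322 (minus strand) for Nfkbia, chr9:22947873-22948122 (minus) for Nfkbie, chr1:255108124-255108373 (plus) for Nfkb2, chr11:58251471-58251720 (plus) for Nfkbiz, chr14:101921939-101922188 (minus) for Rel and chr1:15543980-15544229 (minus) for Tnfaip3.
Nfkbia: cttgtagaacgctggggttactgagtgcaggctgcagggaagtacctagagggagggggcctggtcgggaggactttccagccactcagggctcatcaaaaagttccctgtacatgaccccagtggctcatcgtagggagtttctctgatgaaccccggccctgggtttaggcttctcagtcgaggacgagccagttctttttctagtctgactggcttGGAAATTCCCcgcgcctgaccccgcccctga
Nfkbie: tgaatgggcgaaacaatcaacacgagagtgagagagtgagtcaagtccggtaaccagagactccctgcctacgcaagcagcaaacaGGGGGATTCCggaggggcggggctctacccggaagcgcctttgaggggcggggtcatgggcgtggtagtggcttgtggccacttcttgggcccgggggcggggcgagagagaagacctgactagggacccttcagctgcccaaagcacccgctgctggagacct
Nfkb2: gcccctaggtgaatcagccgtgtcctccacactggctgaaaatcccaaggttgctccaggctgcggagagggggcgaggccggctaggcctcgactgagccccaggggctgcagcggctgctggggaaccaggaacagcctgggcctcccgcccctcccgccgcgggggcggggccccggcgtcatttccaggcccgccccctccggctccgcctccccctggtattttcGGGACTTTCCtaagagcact
Nfkbiz: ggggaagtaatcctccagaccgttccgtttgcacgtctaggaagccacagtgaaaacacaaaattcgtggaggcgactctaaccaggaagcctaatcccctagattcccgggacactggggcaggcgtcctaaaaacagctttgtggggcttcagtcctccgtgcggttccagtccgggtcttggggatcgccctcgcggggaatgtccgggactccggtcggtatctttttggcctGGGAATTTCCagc
Rel: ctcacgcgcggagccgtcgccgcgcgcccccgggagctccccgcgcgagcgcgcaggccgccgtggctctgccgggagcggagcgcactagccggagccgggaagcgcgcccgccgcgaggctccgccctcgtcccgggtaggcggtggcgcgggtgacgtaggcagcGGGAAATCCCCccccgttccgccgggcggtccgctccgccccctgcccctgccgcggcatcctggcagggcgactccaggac
Tnfaip3: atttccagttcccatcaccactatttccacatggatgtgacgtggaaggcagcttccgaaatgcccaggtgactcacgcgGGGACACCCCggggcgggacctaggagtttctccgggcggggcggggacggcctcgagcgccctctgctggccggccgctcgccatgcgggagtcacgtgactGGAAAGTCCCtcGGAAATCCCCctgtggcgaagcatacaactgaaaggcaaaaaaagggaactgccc
The site of Nfkbia began 31 bases before the start, that of Nfkb2 20 bases and that of Nfkbiz 13 bases. Tnfaip3 held 3 sites, which began 170, 67 and 55 bases before the start. The capitals in Rel are 2 overlapping matches.

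Estimated counts summed to 15117102 with Aβ and 15019416 with DMSO, and members held 0.277% of them in each library. Measured genes were those with 1 CPM (counts scaled to the library total) or more in at least 1 library, which 84 of the 136 members and 13505 of all genes reached. Of the 52 members below that level, 35 had under 5 counts in both libraries. The pattern also took in some genes outside these pathways by their symbols, such as Il1rapl1 and Il1rapl2 (synaptic adhesion) and Traf3ip1 (cilia). In the RefSeq annotation 27 of the 84 measured members overlap another gene, so their reads may be shared. OPC markers were abundant (10 of 10 measured, 2323 and 2246 TPM summed for Aβ and DMSO). Astrocyte markers were as abundant (9 of 9, 2266 and 2152 TPM), with Gfap, the astrocyte filament, at 838 and 793 TPM. Neuronal markers summed to 470 and 451 TPM, most of it Tubb3. Microglia and macrophage markers summed to 24.4 and 31.7 TPM, with 6 of 15 measured, and none of the 15 was at 0. The 4 endothelial markers listed summed to 1.04 and 1.21 TPM, and the 6 of fibroblasts and pericytes to 5.45 and 5.05 TPM. In such bulk libraries a receptor transcript cannot be assigned to a cell type, and fewer cells of a type cannot be told apart from less RNA per cell.

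Levels below are in TPM (a scale that corrects for transcript length) for Aβ first and DMSO second. Ratios are count ratios, Aβ over DMSO, on scaled library sizes, with 95% intervals that cover counting error only. TPM ratios of all measured genes had a median log2 of 0.037 against -0.00078 for count ratios, so a pair of TPM values can lie slightly the other way from its count ratio. A gene was called at a log2 ratio of at least 1 in size (with 0.5 CPM added to each value) and an interval that left out 1. By this rule 0 of 84 measured members were called, beside 0.674% of all measured genes (0.267% higher and 0.407% lower with Aβ). A smaller rule asked for a ratio of at least 1.2-fold and an interval that left out 1. It took 5 members, or 5.95%, beside 4.78% of all measured genes, a share near that background with all counts used. Of these, 4 were higher with Aβ (2.36% of all measured genes were) and 1 was lower (2.42%). The 5 were Nfkbie, Traf6, Lifr and Ikbkg on the higher side and Tnfrsf11b on the lower. Both background shares hold many genes with fractional (not whole) counts. Such counts were in 39.3% of genes past the smaller rule and 86.8% of called genes. They were in 13.2% of all measured genes and 5.95% of measured members. With whole counts alone the smaller rule took 5 of 79 members and 392 of 11726 genes, and 12 of 11726 genes were called. The interval alone left out 1 for 9 members, or 10.7%, beside 13.4% of all measured genes. Over the 84 members, 37 had a ratio above 1 and 47 had one below 1 (median log2 ratio -0.016). That is 44.0% above 1, beside 49.7% of all measured genes, and such splits can shift with the unit used.

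**Figure D1:**
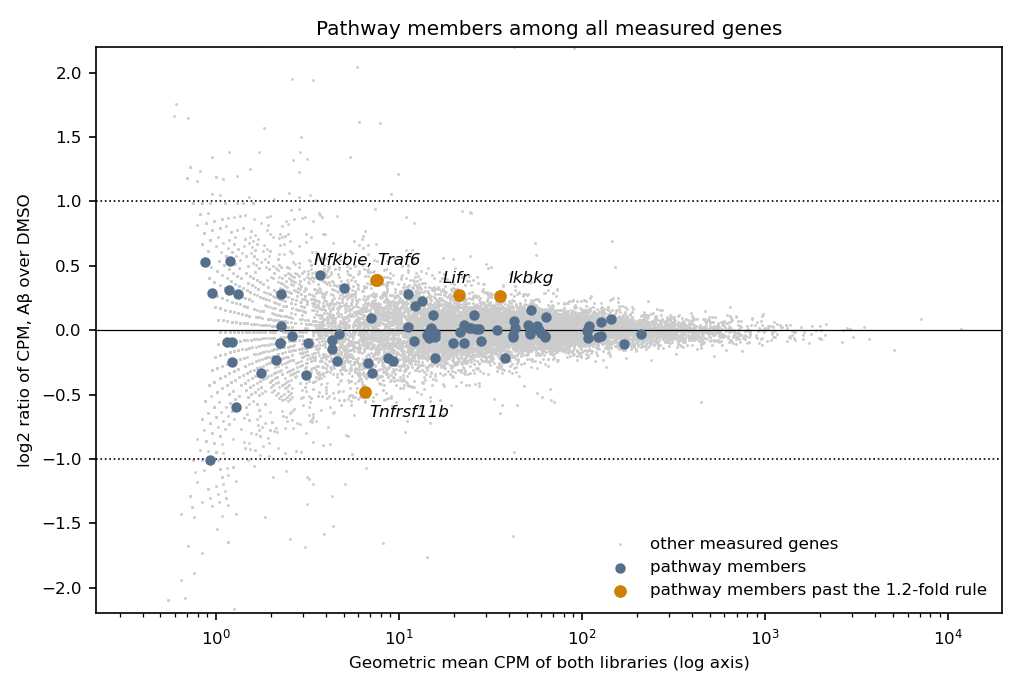
Log2 ratio of CPM (Aβ over DMSO, with no value added) against the geometric mean CPM of both libraries on a log axis, for 84 pathway members (blue, orange past the 1.2-fold rule) and all other measured genes (grey); dotted lines mark 2-fold. The 34 measured genes with a count of 0 in 1 library are not drawn, and 18 genes lie beyond the axis. The member on the lower dotted line is Socs1, with 10 and 20 counts.

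Of the gp130 family, the chains for LIF, oncostatin M, CNTF and IL-11 were all well above 1 TPM, and Il6r and Il27ra were below it. Il6st, the shared signalling chain, stood at 29.0 and 26.6 TPM from 2248 and 2095 counts (ratio 1.06, interval 1.00 to 1.13). Cntfr, which binds ciliary neurotrophic factor, was the interleukin-type receptor with the highest level, at 50.6 and 48.8 TPM from 787 counts in each library (0.992, 0.897 to 1.10). Il11ra1, the IL-11 receptor, had 23.6 and 22.2 TPM, and Osmr, the oncostatin M receptor, had 15.2 and 14.7 TPM. Their ratios were 1.08 (0.938 to 1.25) and 0.964 (0.880 to 1.06). Lifr, the LIF receptor and a chain of the CNTF receptor, was the lowest of these chains and the one past the 1.2-fold rule. Its counts were 357 and 293 (6.77 and 5.39 TPM, 1.21, 1.03 to 1.42), and its ratio was 1.19 once the trend with transcript length was removed, under 1.2-fold. Il6r, the membrane receptor that lets a cell bind IL-6 itself, stood far below Il6st, at 0.31 and 0.24 TPM from 16 and 11 counts. Il27ra, which also pairs with Il6st, was at 0.78 and 0.65 TPM with fractional counts.

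Both chains of the IL-1 receptor were present, at unequal levels. Il1rap, the accessory chain shared by receptors for IL-1, IL-33 and IL-36, had 48.6 and 42.8 TPM from 838 and 745 counts (ratio 1.12, 1.01 to 1.23). Il1r1, the signalling receptor, had 7.45 and 7.05 TPM from 378 and 370 counts (1.01, 0.876 to 1.17). The decoy Il1r2, named after its values were seen, had 10 and 11 counts, under the level of measurement. Il1rl2, the IL-36 receptor, had 5 and 6 counts, and Il18r1, the IL-18 receptor, 1 and 2. A second chain of the IL-33 and of the IL-18 receptor was not analysed here.

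The IL-17 receptors were present with their shared chain. Il17ra, used by several IL-17 cytokines, had 11.2 and 10.8 TPM (ratio 1.01, 0.876 to 1.16). Its partner for IL-17A, Il17rc, had 187 and 153 counts (8.79 and 7.04 TPM, 1.21, 0.974 to 1.51). Its partner for IL-17E, Il17rb, had 532 and 612 counts (18.2 and 20.7 TPM, 0.862, 0.766 to 0.970), which did not reach 1.2-fold. The 2 partners thus lay on opposite sides of 1, the interval of Il17rc included 1, and their difference was not tested. In the reference annotation Il17rb overlaps Actr8 and Chdh, which had ratios of 1.03 and 1.05, and the sources used here do not say whether counting used strand.

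Of the receptors for lymphocyte cytokines, that for IL-4 with IL-13 had both chains and the common γ chain of the others had at most 1 count. Il4r and Il13ra1, which form the IL-4 and IL-13 receptor of non-blood cells, had 6.43 and 6.56 TPM and 14.7 and 14.3 TPM, with ratios of 0.961 (0.794 to 1.16) and 1.00 (0.885 to 1.13). Il2rg, the common γ chain that blood cells use for IL-2, IL-4, IL-7, IL-15 and IL-21, had 0 counts with Aβ and 1 with DMSO. Il2ra had 2 and 0 counts, Il2rb 0 and 1, Il7r 4 and 2, Il15ra 2 and 4 and Il21r 1 and 0. For 2 receptors 1 chain was well above 1 TPM and its partner near 0. Il12rb2 of the IL-12 receptor had 9.95 and 9.2 TPM from 660 and 624 counts, while Il12rb1 had 1 count in each library. Il10rb, shared by IL-10 and IL-22 receptors, had 7.58 and 9.01 TPM from 129 and 151 counts (0.847, 0.665 to 1.08), while the IL-10 binding chain Il10ra had 10 and 5 counts. Of the colony-stimulating factor receptors, Csf2ra had 38 and 31 counts (3.61 and 2.84 TPM), its signalling partner Csf2rb had 3 and 4, and Csf3r had 3 and 1. Csf1r, the receptor that microglia need to survive, had 47 and 50 counts (1.27 and 1.33 TPM, 0.932, 0.613 to 1.42). Microglial markers, given above, were also low in both libraries, and their part in the Csf1r level was not tested.

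Over all 41 interleukin, gp130 and colony-stimulating factor receptors, 21 were measured, 12 with a ratio above 1 and 9 with one below 1 (median log2 ratio 0.0089). The gene Il20ra, named after its values were seen, had 10 counts against 0 in the control, at least 3.31-fold higher against a floor of 3 counts per library (lower limit of the counting interval 2.22). It was below the level of measurement. With no filter on level it was the member that the 2-fold rule took, 1 of 136, beside 117 of all 17202 genes.

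**Figure D2:**
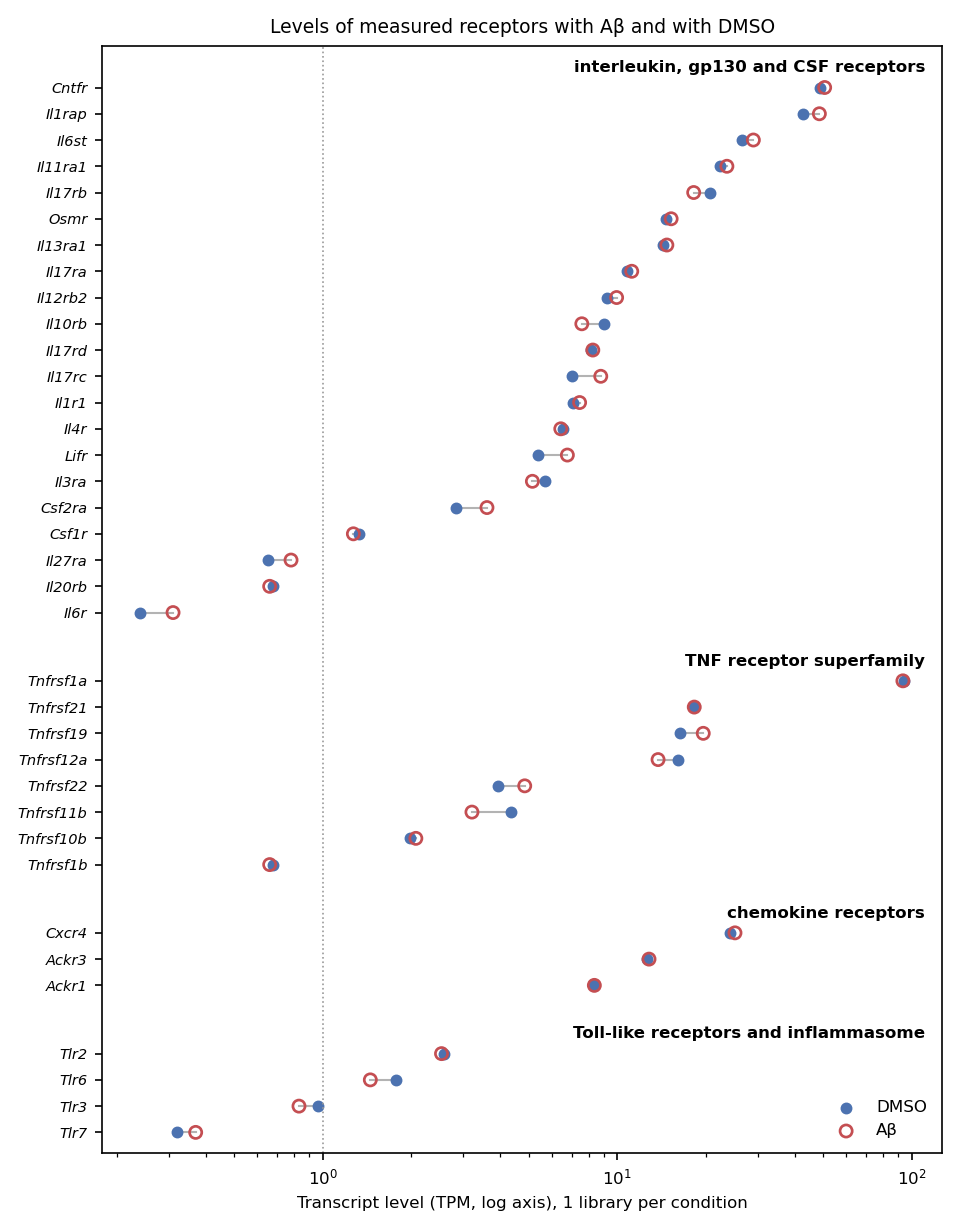
Levels in TPM (log axis) of the 36 measured receptors with Aβ (open red) and DMSO (filled blue), 1 library each, grouped by family; the dotted line marks 1 TPM. Most pairs of points overlap, and the levels run from below 1 TPM for Il6r and Tlr7 to above 90 TPM for Tnfrsf1a.

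Among TNF receptors, the type 1 receptor was far above the type 2 receptor. Tnfrsf1a, which carries the death domain and signals to NF-kB in most cells, had 1827 and 1879 counts (93.3 and 94.0 TPM, ratio 0.964, 0.904 to 1.03). Tnfrsf1b, the type 2 receptor, had 18 and 19 counts (0.66 and 0.68 TPM). Tnfrsf21 (death receptor 6), a known binding partner of a fragment of the amyloid precursor protein, had 781 and 792 counts (18.3 and 18.2 TPM, 0.978, 0.885 to 1.08). Tnfrsf19 (TROY) had 218 and 185 counts (19.6 and 16.4 TPM, 1.17, 0.956 to 1.43). Tnfrsf12a, the receptor for TWEAK, had 94 and 111 counts (13.8 and 16.1 TPM, 0.840, 0.631 to 1.12). Tnfrsf11b (osteoprotegerin), a secreted decoy for RANKL and TRAIL, was the member lower with Aβ by the smaller rule, at 84 counts against 116 (3.21 and 4.35 TPM, 0.718, 0.536 to 0.959). The other 9 of 17 TNF receptors, among them Tnfrsf4, Tnfrsf8 and Tnfrsf9 of activated lymphocytes, were below the level of measurement. Of the 8 measured, 3 had a ratio above 1 and 5 below.

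Chemokine receptors reduced to 3 measured genes of 10. Cxcr4, the receptor for CXCL12 that guides migrating OPCs, had 370 and 363 counts (25.1 and 24.2 TPM, ratio 1.01, 0.872 to 1.17). Ackr3, the scavenger receptor for the same ligand, had 221 counts in each library (12.8 and 12.6 TPM, 0.992, 0.819 to 1.2). Ackr1, an atypical receptor that binds many inflammatory chemokines, had 71 and 72 counts (8.36 TPM in both, 0.978, 0.695 to 1.38). All 3 intervals lay within 1.5-fold. The other 7, including Cxcr3 and Cxcr5 of leukocytes, had at most 4 counts.

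TLRs were scarce, and 4 of 17 TLR and inflammasome genes were measured. Tlr2, which recognizes bacterial lipoproteins, led with 64 and 67 counts (2.53 and 2.57 TPM, ratio 0.947, 0.662 to 1.35). Its partners Tlr6 and Tlr1 had fractional counts of 41.9 and 52.8, and of 13.2 and 12.2. Together Tlr1 and Tlr6 had 55.1 and 65.0 counts (0.841, 0.575 to 1.22). Tlr3, the sensor of double-stranded RNA, had 33 and 35 counts (0.83 and 0.96 TPM), and Tlr7, a sensor of single-stranded RNA, had 16 and 13. Tlr4, the endotoxin receptor, had 7 and 11 counts (0.22 and 0.34 TPM). Of its co-receptors, which are no members, Ly96 (MD-2) had 7 and 9 counts (1.47 and 1.88 TPM) and Cd14 had 70 and 91 (5.49 and 6.59 TPM, 0.763, 0.551 to 1.05). Tlr5 had 3 and 7 counts and Tlr9 had 3 in each library.

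The inflammasome set was close to absent at this depth. Nlrp3, the sensor, had 5 and 8 counts, its adaptor Pycard, no member, had 1 in each, and the protease Casp1 had 1 and 0. A count of 0 allows up to 3 counts in a library. Over the whole list of 15 microglial markers, which summed to 24.4 TPM with Aβ and 31.7 with DMSO, 4 had a ratio above 1 and 11 below. All 15 intervals included 1, but at such low counts each was wide. That of Laptm5, with 32 and 34 counts, ran from 0.558 to 1.56. Counts of the 15 markers summed to 182 with Aβ and 224 with DMSO, and the difference of these sums was not tested. Of the 4 measured TLRs, 3 had a ratio below 1, and the median of their log2 ratios was -0.074. The intervals of all 4 included 1. The part of microglial RNA in the TLR values was not tested.

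The chains were then read as 42 receptor sets, each complete where every chain reached 1 TPM in both libraries. By this rule 14 sets were complete, the same 14 in each library. They were the receptors for IL-1, LIF, oncostatin M, CNTF, IL-11, IL-4 with IL-13 (type II), IL-17A, IL-17E, M-CSF, TNF (type 1), TWEAK and CXCL12, the scavenger Ackr3, and the pair Tlr2 with Tlr6. Of the remaining 28, 22 had all chains listed and at least 1 of them under 1 TPM. The other 6 had a chain whose symbol was not listed, so it was not analysed here. In 2 of those 6, for IL-18 and IL-23, the listed chain (Il18r1 and Il12rb1) was also under 1 TPM. Among the 22 were Cd40, a TNF receptor of antigen-presenting cells, at 0.41 and 0.17 TPM, and Cx3cr1, the fractalkine receptor of microglia, at 0.47 and 0.65 TPM. A transcript at this level says nothing of protein at the surface. With a minimum of 5 TPM, 12 sets were complete, and the 2 lost were M-CSF and Tlr2 with Tlr6.

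**Figure D3:**
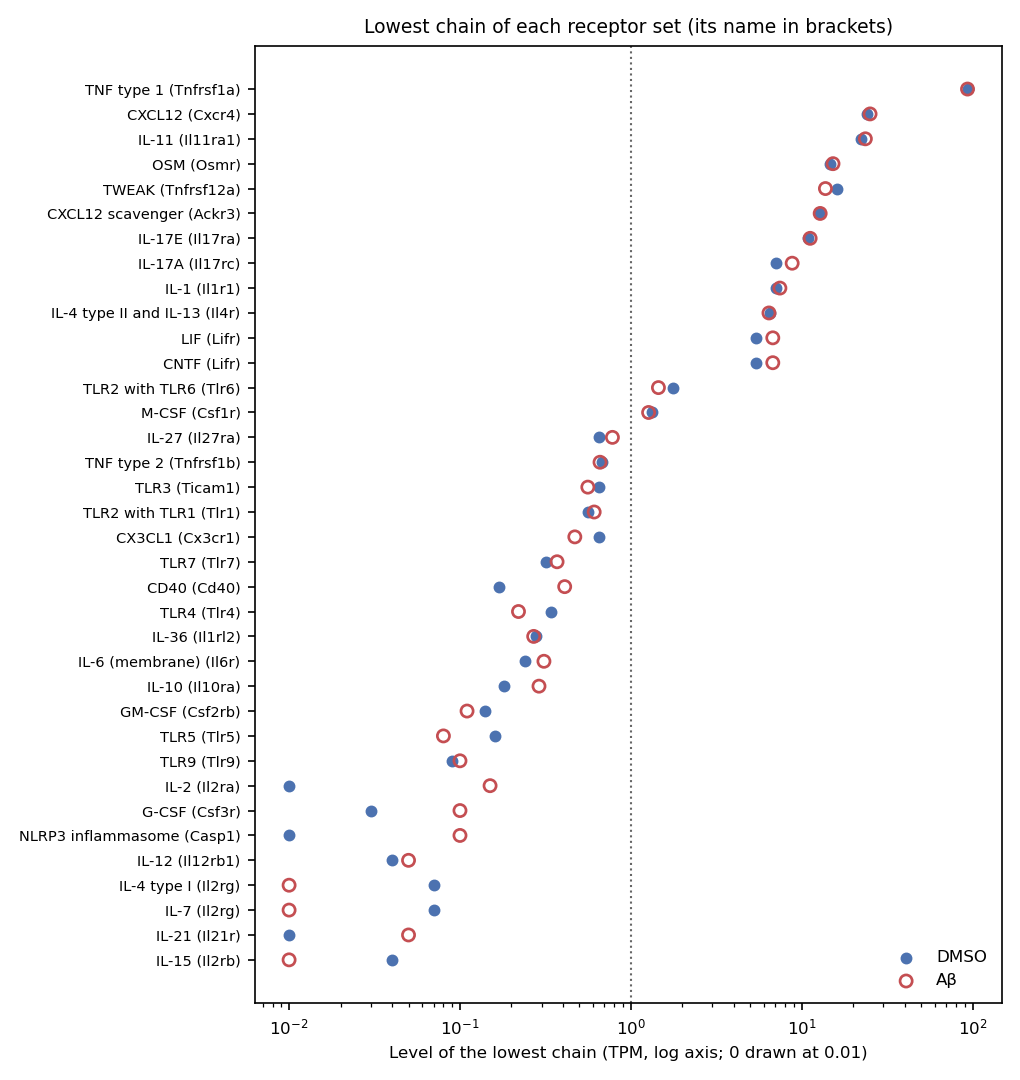
Level in TPM (log axis, 0 drawn at 0.01) of the lowest chain of each of the 36 receptor sets whose chains were all listed, with Aβ (open red) and DMSO (filled blue); the chain is named in brackets and the dotted line marks 1 TPM. The 14 complete sets lie right of the line in both libraries, and 12 of them have their lowest chain at 5 TPM or more.

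Downstream of the receptors nearly all parts of the pathway were measured, 26 of 27 adaptors and kinases. Traf4, an adaptor better known in development than in immunity, had the highest level of all members, at 170 and 168 TPM from 3142 and 3177 counts (ratio 0.981, 0.933 to 1.03). Traf7 had 64.8 and 63.5 TPM. Traf2, which serves TNF receptors, had 15.5 and 16.2 TPM (0.934, 0.793 to 1.10), and Traf3, a brake on non-canonical NF-kB, had 8.65 and 8.63 TPM (0.975, 0.872 to 1.09). Traf6, the ubiquitin ligase that IL-1 receptors and TLRs share, was higher with Aβ, at 132 counts against 100 (5.21 and 3.87 TPM, 1.31, 1.00 to 1.72). The interval of Traf6 cleared 1 by a narrow margin. Traf5 had the ratio farthest from 1 in this group, 0.661 (0.328 to 1.297), on 16 and 24 counts.

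Of the IL-1 and TLR adaptors, Myd88 had 331 and 351 counts (16.8 and 17.4 TPM, ratio 0.935, 0.802 to 1.09). Ticam1 (TRIF), the adaptor of Tlr3, had 17 and 20 counts (0.56 and 0.65 TPM). Irak1, the kinase that Myd88 recruits, had 2482 and 2652 counts (75.0 and 78.5 TPM, 0.928, 0.878 to 0.981), an interval wholly below 1 for a ratio within 1.2-fold. Irak4, which activates Irak1, had 326 counts in each library (0.992, 0.848 to 1.16). Irak2 had 65 and 48 counts (1.34, 0.911 to 1.99). Map3k7 had 41.5 TPM in both libraries, and its partners Tab1 and Tab2 had 27.5 and 26.05 TPM and 44.4 and 41.4 TPM, all 3 with intervals that included 1.

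The IKK complex differed in 1 subunit by the smaller rule. The catalytic subunits Chuk (IKKα) and Ikbkb (IKKβ) had 939 and 959 counts (ratio 0.971, 0.887 to 1.06) and 659 and 645 counts (1.01, 0.908 to 1.13). Ikbkg (NEMO), the regulatory subunit that canonical signalling requires, was higher with Aβ, at 595 counts against 490 (12.2 and 9.88 TPM, 1.204, 1.07 to 1.36). With the length trend removed and in FPKM the ratio of Ikbkg was 1.19 and 1.196, under 1.2-fold. Over the 26 adaptors and kinases, 10 had a ratio above 1 and 16 had one below 1 (median log2 ratio -0.032, and 0.019 from TPM).

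**Figure D4:**
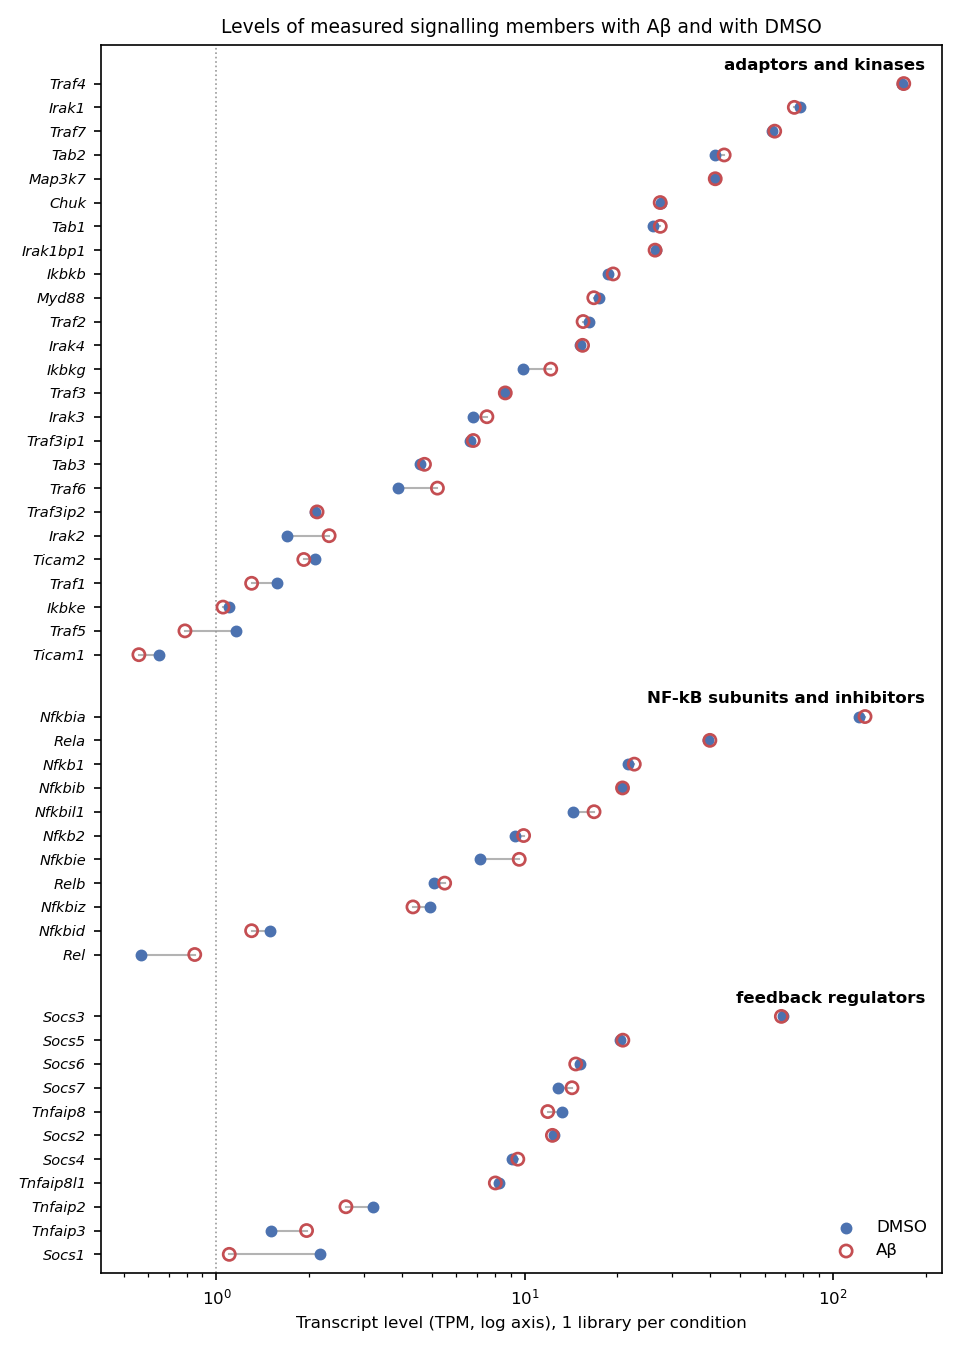
Levels in TPM (log axis) of 47 measured adaptors, kinases, NF-kB genes and feedback regulators with Aβ (open red) and DMSO (filled blue), 1 library each; the dotted line marks 1 TPM. Traf4 and Nfkbia have the highest levels, and the widest gaps belong to low genes such as Socs1, Rel and Traf5.

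All 11 NF-kB subunits and inhibitors were measured. Of the subunits, Rela had 899 and 905 counts (39.9 and 39.4 TPM, ratio 0.985, 0.897 to 1.08) and its partner Nfkb1 874 and 847 (22.7 and 21.6 TPM, 1.02, 0.930 to 1.13). Nfkb2 and Relb, of the non-canonical arm, had 9.92 and 9.31 TPM (1.03, 0.884 to 1.2) and 5.50 and 5.08 TPM (1.07, 0.810 to 1.41). Rel (c-Rel), prominent in lymphocytes, had 22 and 15 counts (1.45, 0.721 to 3.02). The inhibitor Nfkbia had 1682 and 1630 counts (127 and 121 TPM, 1.02, 0.956 to 1.10). Nfkbib had 20.8 and 20.6 TPM (0.984, 0.819 to 1.18). Nfkbie (IkBε) was higher with Aβ, at 131 counts against 99 (9.60 and 7.14 TPM, 1.31, 1.00 to 1.72). Like that of Traf6, its interval began just above 1. Nfkbiz, an atypical nuclear IkB, had 123 and 142 counts (0.859, 0.669 to 1.10). Of the 11, 7 had a ratio above 1 and 4 below (median log2 ratio 0.033).

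Of the 13 feedback regulators, 11 were measured, 3 with a ratio above 1 and 8 with one below 1 (median log2 ratio -0.060). This group was set by symbol (Socs and Tnfaip names), with no check that each gene acts in feedback. Tnfaip3, the deubiquitinase that NF-kB induces and whose promoter held 3 kB matches, had 85 and 67 counts (1.96 and 1.5 TPM, ratio 1.26, 0.903 to 1.76). Tnfaip2, also induced by TNF, had 97 and 121 counts (0.795, 0.602 to 1.05). Socs3, the feedback inhibitor of gp130 signalling, was the most abundant of the group at 68.0 and 69.1 TPM from 1608 and 1663 counts (0.959, 0.895 to 1.03). Socs1, which restrains interferon and γ chain receptors, had 10 and 20 counts (1.10 and 2.17 TPM, 0.496, 0.207 to 1.11), the lowest ratio of any measured member and one whose interval included 1. Socs2 had 12.3 and 12.5 TPM, Socs5 20.8 and 20.3 TPM, Socs6 14.6 and 15.2 TPM and Socs7 14.2 and 12.9 TPM, all 4 with intervals within 1.5-fold.

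The 17 measured members whose promoter held a kB consensus had ratios from 0.859 (Nfkbiz) to 1.45 (Rel), 11 above 1 and 6 below (median log2 ratio 0.042). The 49 measured members with a promoter in the table and no kB consensus had 15 above 1 and 34 below, with a median of -0.042. Of the 17, 0 were called and 1, Nfkbie, passed the smaller rule. Of the 49, 0 were called and 2 passed the smaller rule. Over all measured genes 0.674% were called and 4.78% passed the smaller rule. The 17 included the receptors Il12rb2, Il1rap and Il1r1 given above. Irak3, Traf3ip2 and Tnfaip8l1 are named here only for the motif. The difference between both sets of members was not tested.

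**Figure D5:**
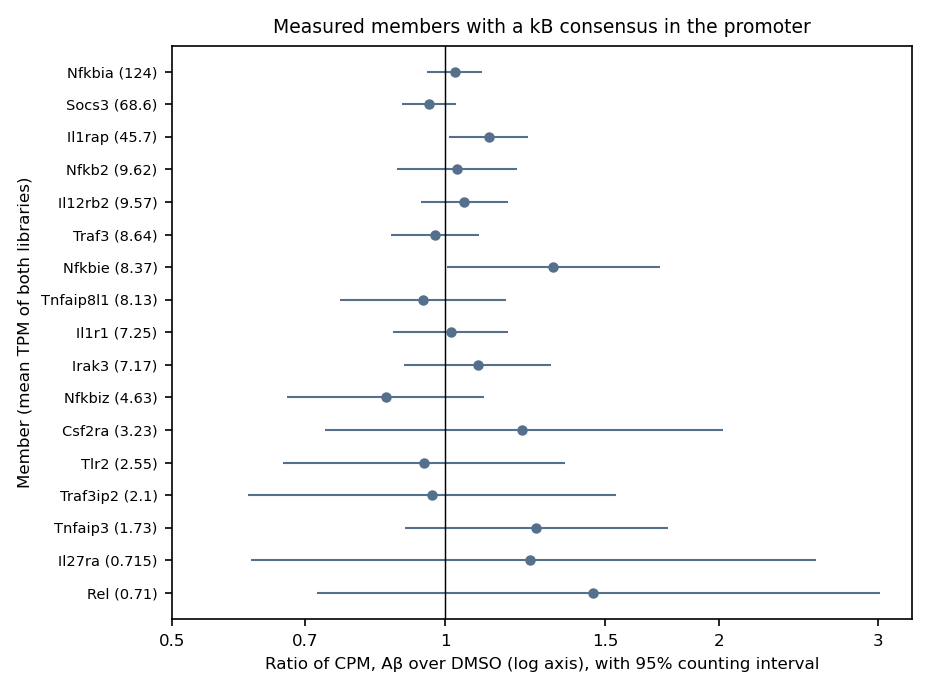
Ratio of CPM (Aβ over DMSO, log axis) with its 95% counting interval for the 17 measured members with a kB consensus in the promoter, ordered by level, with the mean TPM of both libraries in brackets. The 3 most abundant, Nfkbia, Socs3 and Il1rap, have narrow intervals near 1, and the interval leaves out 1 for Il1rap and Nfkbie.

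Genes of these pathways outside the members were read from 3 lists. Of 59 further pathway genes, 53 were measured, 29 with a ratio above 1 and 24 with one below (median log2 ratio 0.017). By the smaller rule 0 of them were higher and 1 was lower (1.89%, beside 4.78% of all measured genes). That was the scaffold Card10, with 54 and 83 counts (0.645, 0.449 to 0.920). The interval lay wholly above 1 for 5 of the 53, Stat3, Ptpn11, Cyld, Azi2 and Ltbr, and wholly below 1 for Card10. Together these are 11.3%, beside 13.4% of all measured genes. Stat3, the factor that gp130 receptors activate, had 178 and 166 TPM (1.04, 1.01 to 1.08), and Jak1 79.4 and 75.9 TPM (1.02, 0.972 to 1.06). Of 34 listed NF-kB target genes, 8 of them members, 23 were measured, 13 above 1 and 10 below, with a median of 0.015. Among the measured ones that are no members, the ratio ran from 0.746 (Plau, 0.553 to 1.00) to 1.31 (C3, 0.913 to 1.88). The survival factor Bcl2l1, with 819 and 918 counts, had an interval wholly below 1 (0.885, 0.804 to 0.973). Icam1, the adhesion molecule, had 80 and 78 counts, the cytokine Il1b 19 and 18, and the chemokine Ccl2 18 and 16. Nos2, chosen after its values were seen, had 11 counts in the Aβ library and 0 in the other, at least 3.64-fold higher against the floor of 3 counts per library (lower limit of the counting interval 2.49) and below the level of measurement. Of 19 measured STAT3 target genes, 4 of them members, 3 lay above 1 and 16 below, with a median of -0.052. That is 15.8% above 1, beside 49.7% of all measured genes. The smaller rule took 1 of the 19 (5.26%, beside 4.78% of all measured genes). That was Cebpb, lower with 135 and 175 counts (0.765, 0.607 to 0.963). The interval lay wholly below 1 for 3 of the 19, Cebpb, Fgl2 (ratio 0.859) and Timp1 (0.879). It lay wholly above 1 for 1, Gfap, with a ratio of 1.03 (1.01 to 1.05). Together these are 21.1%, beside 13.4% of all measured genes, and the difference from all measured genes was not tested.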

How the data were processed

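RNA from 2 cultures was sequenced, 1 library per condition, and samples were grouped by the treatment in their labels. A BGI kit was used to build the mRNA libraries, per the labels. Bowtie2 and Rnor_6.0, a rat genome build, are named per the submitters' processing notes. Details of quantifier, annotation and strand were not given in the sources used here. Per gene, the deposited table gives, per the file headers, the authors' estimated counts (expected counts, of which 5.95% of measured members had fractions), TPM, FPKM and a normalized read count. That last signal column equalled, in the deposited file, the estimated count rounded up over a constant in 100% of its values above 0 and was not analysed further.

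Estimated counts were rounded to whole numbers. Library sizes were scaled by TMM in edgeR 4.0.16 (R 4.3.3). Ratios carry exact 95% intervals (Clopper-Pearson, given the summed counts of both libraries, scipy 1.17.1), which cover counting error only. Log2 ratios used 0.5 CPM as pseudocount. The calculation was tested on simulated data. With 1 library per group no p-value was computed. Members and lists were chosen with earlier results of these data known. Named members were every called one, per role the 4 most abundant and the 3 with the largest log2 ratio, every chain of the receptor sets, and a fixed panel of pathway genes. Members given otherwise are marked or given only in lists, and a few items are not reported here. Identifiers of all 136 members matched the RefSeq table (GRCr8), used for names, overlaps and promoters. Alternatives covered scaling (including DESeq2 1.42.0), units, pseudocount, level filter, transcript length, fractional counts, fold and the level that makes a receptor set complete.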

Additional observations from a re-analysis of the deposited data

How the results depend on the processing

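The count of members called at 2-fold stayed at 0 of 84 with total counts, DESeq2 size factors, TPM, FPKM, a pseudocount of 2 CPM, the length trend removed and a fold of 1.5. It was 0 of 79 with whole counts alone, 0 of 52 with a filter of 10 CPM and 1 of 136 with no filter, which was Il20ra. The 5 members past the 1.2-fold rule were 3 with the length trend removed, where Lifr and Ikbkg lay just under 1.2-fold, and 2 with a filter of 10 CPM, which left Lifr and Ikbkg because the others are below that level. The other settings gave 4 (FPKM) to 6 (TPM and no filter). The median log2 ratio of members was -0.016 and became 0.024 with TPM, beside 0.037 for all genes. Of all measured genes, 91 were called at 2-fold, against 47 with a pseudocount of 2 and 234 at a fold of 1.5. Called genes were 24 of 10322 at 10 CPM, 12 of 11726 with whole counts alone and 117 of 17202 with no filter. The 646 past the 1.2-fold rule became 369 of 10322 at 10 CPM, 392 of 11726 with whole counts and 711 of 17202 with no filter. Complete receptor sets numbered 14, and 18 at 0.5 TPM, 12 at 5 TPM and 17 at 1 CPM. All 390 values of the 65 named measured members under 6 other settings lay within their counting intervals. Those settings reuse the same 2 libraries and move most ratios little, so this is no check on the differences themselves. The interval lay wholly within 1.5-fold for 53 of 84 members (63.1%), against 80.1% of all measured genes, so counts limited the comparison most for low receptors. No paired analysis was possible because each group has 1 library, and for the same reason no replicate could be left out.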

Other observations

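Implied transcript lengths, taken as the count over FPKM and library total, were compared for the 50 members at 5 FPKM or more in both libraries. None lay more than 5% from the median change of all genes at that level, while 3.18% of those 9857 genes did. The change was 5.21% for Il11ra1, beside a median of 0.317% over all genes at that level, at 1615 bases with Aβ and 1535 with DMSO. Osmr had an implied length of 5768 and 6036 bases. Its TPM ratio of 1.04 and its count ratio of 0.964 lie on opposite sides of 1. Il1rap had an implied length of 1625 and 1605 bases and Il6st of 7304 and 7261 bases.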
